A study of Rattus norvegicus with 2 samples.

Results

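The genes of the cytoplasmic ribosomal proteins were followed through 2 single-cell RNA libraries of rat carotid artery. Members were all rows of the count table whose gene symbol begins with Rpl or Rps followed by a digit or a lower case letter, leaving out the S6 kinases (symbols starting Rps6k). The rule gave 97 of 32623 rows, under 91 symbols, with 59 rows for proteins of the large subunit and 38 for proteins of the small subunit. Of these rows 89 had at least 1 UMI (a unique molecular identifier, which marks 1 captured RNA molecule) in the cells kept here and 8 had none. The rule also took in Rps19bp1, which encodes a protein that binds Rps19 and is no part of the ribosome.

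The control library held cells of uninjured left carotid arteries without treatment, and the case library held cells of right carotid arteries after balloon injury, a model in which an inflated balloon strips the inner cell layer of the vessel. Both came from male SD (Sprague-Dawley) rats whose age is 12 weeks in the labels and 8 weeks at the start in the study's methods, and no genetic change is given for either group. By the study's methods both arteries came from the same rats, so the libraries share their animals. Each library pooled the vessels of 2 rats, taken 28 days after the injury and digested with trypsin and collagenase, and the animals within it cannot be told apart. As each group is 1 library, no replicates exist and no test of injury is possible. Every interval below covers counting error only, and injury and any other difference between the 2 libraries cannot be told apart.

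A ribosome joins a small subunit, which binds the mRNA and reads its codons, to a large subunit, which forms the peptide bonds and lets the new chain out through a tunnel. Apart from ribosomal RNA each subunit holds a set of proteins, most of which are made in equal numbers, and surplus copies are degraded. Their mRNAs are among the most abundant in most cells, are short, and carry a run of pyrimidines at the 5′ end, called the terminal oligopyrimidine tract, through which mTOR and Larp1 govern their translation. Ribosomal protein genes have also left many processed copies, or pseudogenes, across mammalian genomes, so a read from one of them can match several places.

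The pyrimidine tract is a feature that the rule did not use. The windows below show pyrimidine runs near the annotated start of members that take opposite sides in the comparison of the libraries. Such a run may lie before the start or begin after it, as that of Rps28 does, so it is not always a tract at the first transcribed base. Each window holds 15 bases before and 15 from the RefSeq transcription start (build GRCr8), 5′ to 3′ on the gene's strand, with an unbroken run of at least 7 C or T bases in capitals where it reaches within 10 bases of the start. Rpl37a, Rpl37, Rps27 and Rps28 were higher in the case library, Rplp0, Rpl19, Rpl13 and Rpl10 were lower, and Rpl22l1, a paralogue of Rpl22, is shown as a member with no such run.
Rpl37a, chr9:81748076-81748105, + strand: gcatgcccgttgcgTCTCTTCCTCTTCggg
Rpl37, chr2:55942930-55942959, + strand: tggtaggcgtaCTTTCTCTTCCggtctctt
Rps27, chr2:177964592-177964621, - strand: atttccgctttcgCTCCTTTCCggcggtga
Rps28, chr7:15311319-15311348, - strand: gcatcccctgctcacgtgaCTCCTCTCCgc
Rplp0, chr12:46718376-46718405, - strand: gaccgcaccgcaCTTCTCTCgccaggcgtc
Rpl19, chr10:83519049-83519078, + strand: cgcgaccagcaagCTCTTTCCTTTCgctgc
Rpl13, chr19:68062499-68062528, + strand: ctttgcggtgcccgaTCCTTTCCgctcggc
Rpl10, chrX:157205835-157205864, + strand: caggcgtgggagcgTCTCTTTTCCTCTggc
Rpl22l1, chr2:113683181-113683210, + strand: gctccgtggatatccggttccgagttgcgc

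RefSeq promoter entries matched 68 of the 91 symbols, and 48 of them (70.6%) had such a run on the gene's strand, against 21.0% of all 27457 symbols with an entry. The shares with a run were close to each other on both sides. It was found in 12 of 18 symbols higher in the case library in VSMC-like cells (66.7%), in 19 of 28 lower ones (67.9%) and in 7 of 10 that were neither (70.0%), leaving out symbols on more than 1 row. Of the 18 matched elongation factors and other mRNAs known for this tract 11 had the run, as did 4 of 21 ribosome assembly genes and 15 of 63 genes of mitochondrial ribosomal proteins. Ribosome assembly and mitochondrial ribosomal protein genes, which are not known for the tract, thus stood near the share of all symbols.

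Cells were sorted into classes by the UMIs of marker genes alone, and no ribosomal protein gene entered the sort. VSMC-like cells (vascular smooth muscle cells, marked by Acta2, Tagln and Myh11 among others) numbered 989 in the control and 2267 in the case library, and fibroblast-like cells 793 and 1468. Endothelial-like cells numbered 60 and 244, macrophage-like cells 53 and 130, and Schwann-like cells 24 and 59. A further 823 control and 762 case cells entered no class. Markers of T cells were at 0 CPM (UMIs per 1000000 UMIs) in endothelial-like cells of both libraries, and at 6.06 and 21.0 CPM in control and case macrophage-like cells. Markers of B cells were at 0 in these classes, except for 1.56 CPM in case endothelial-like cells. The VSMC list gave 2376 to 3046 CPM and the fibroblast list 1624 to 2980 CPM in both classes and libraries. Beside 4952 and 4677 CPM of Schwann markers, control and case Schwann-like cells had 10569 and 15343 CPM of the fibroblast list. Of the VSMC list they had 1238 and 3533 CPM. Where these UMIs came from, and their part in the values of the small classes, was not tested. Median UMIs per kept cell were 8880 in the control and 5156 in the case library, and 21 barcode sequences occurred in both. Barcodes were assigned to libraries by the number of barcodes the study gives for each, so the direction of every comparison rests on that match.

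Ribosomal protein genes took a larger share of all UMIs in the case library in each class. In VSMC-like cells they held 11.2% of control UMIs (95% interval 11.2 to 11.3) and 13.3% of case UMIs (13.3 to 13.4), a log2 ratio of 0.25. In fibroblast-like cells the share was 12.2% in the control and 15.0% in the case library, a log2 ratio of 0.30. Endothelial-like cells had 11.7% (11.7 to 11.8) and 16.2% (16.1 to 16.3). Over cells of all depths this was the widest gap of the 4 larger classes, with a log2 ratio of 0.46. Macrophage-like cells had the lowest shares of those 4, with 9.68% in the control and 11.3% in the case library and a log2 ratio of 0.22. Schwann-like cells, with the fewest cells, went from 7.91% (7.76 to 8.06) to 12.1% (12.0 to 12.2). This class held more UMIs of fibroblast markers than of Schwann markers in both libraries. Single cells overlapped widely between libraries, since the middle 80% of VSMC-like cells spanned 7.91% to 15.2% in the control and 9.30% to 17.4% in the case library.

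**Figure D1:**
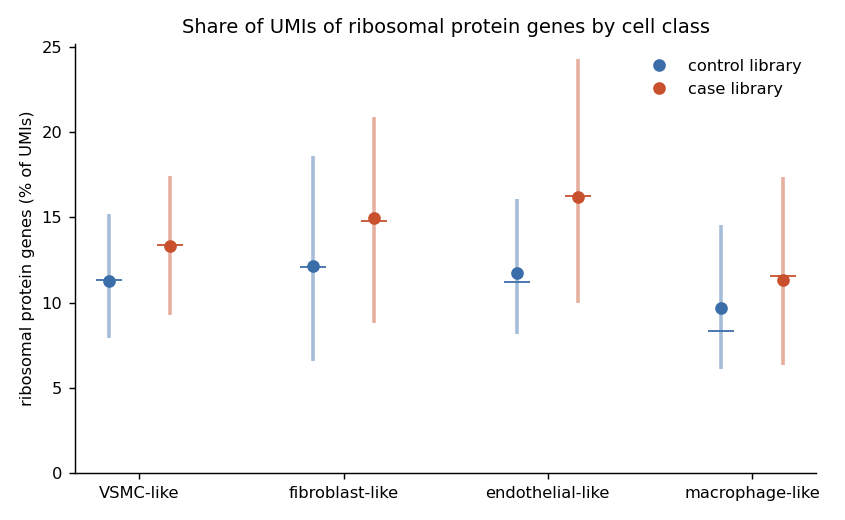
Points give the percent of all UMIs held by ribosomal protein genes in each cell class and library, dashes give the median cell and vertical lines run from the 10th to the 90th percentile of cells. The case point lies above the control point in all 4 classes, while the ranges of single cells overlap. Over cells of all depths the widest gap is in endothelial-like cells (11.7% and 16.2%).

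Mitochondrially encoded genes, read here as a sign of RNA quality, differed beside these shares. Their share of UMIs was 5.78% in control and 6.51% in case VSMC-like cells, 2.32% and 2.47% in fibroblast-like cells, 3.17% and 3.85% in endothelial-like cells and 3.18% and 4.13% in macrophage-like cells. Leaving these genes out of the total, which changes only the scale, gave log2 ratios of 0.26, 0.30, 0.47 and 0.24 in the same order of classes. The part of RNA quality in the result was not tested.

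The libraries also differed in depth, and the ribosomal protein share was read within bins of UMIs per cell. Among VSMC-like cells of 4000 to 8000 UMIs the share was 10.0% in 92 control cells and 13.6% in 1538 case cells, a log2 ratio of 0.44. Between 8000 and 16000 UMIs it was 11.6% in 588 control cells and 12.8% in 304 case cells, a log2 ratio of 0.14. In fibroblast-like cells the same bins gave log2 ratios of 0.48 and 0.25. Endothelial-like cells had 0.42 in the first bin (23 control and 109 case cells) and 0.31 in the second (24 and 33 cells). Their gap was thus below those of VSMC-like and fibroblast-like cells in the first bin and above them in the second. The case library was thus higher in both bins, by less among deeper cells. Between 1000 and 2000 UMIs the order turned, with 12.3% in 18 control and 7.47% in 28 case VSMC-like cells and 19.6% in 41 control and 14.9% in 64 case fibroblast-like cells.

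**Figure D2:**
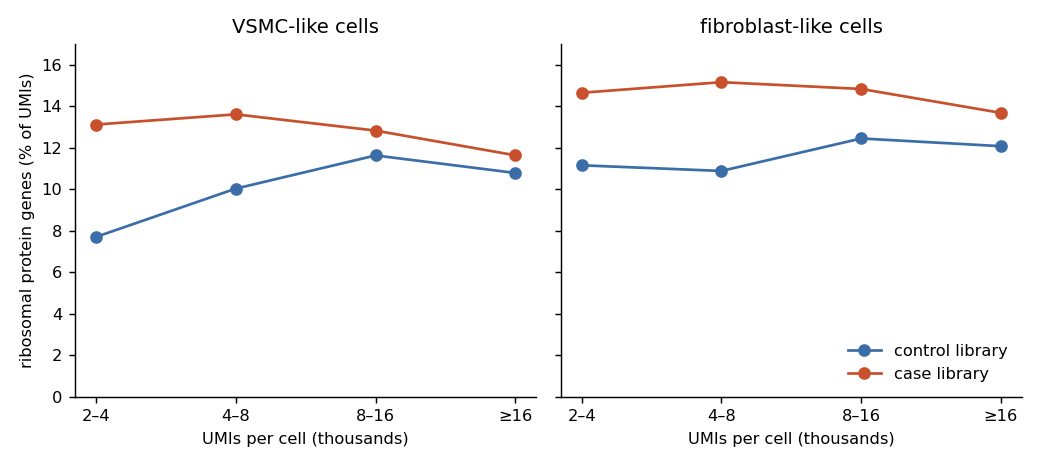
Percent of UMIs held by ribosomal protein genes (vertical axis) in cells binned by UMIs per cell (horizontal axis, in units of 1000), for VSMC-like and fibroblast-like cells of both libraries. The case line lies above the control line in every bin shown, with a log2 ratio of 0.44 at 4000 to 8000 UMIs and 0.14 at 8000 to 16000 UMIs in VSMC-like cells. The last bin holds only 10 case VSMC-like and 6 case fibroblast-like cells.

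The summed UMIs of the genes of the 2 subunits did not differ between libraries to the same extent. Large subunit genes held 6.52% of UMIs in control and 7.96% in case VSMC-like cells, and small subunit genes held 4.73% and 5.38%. The ratio of large to small was 1.38 in the control and 1.48 in the case library, a log2 difference of 0.10 (0.095 to 0.11). It went from 1.39 to 1.43 in fibroblast-like cells, from 1.28 to 1.35 in endothelial-like cells and from 1.24 to 1.29 in macrophage-like cells. Thus the ratio was higher in the case library in each class, and macrophage-like cells had the lowest ratio in both libraries. It is a ratio of sums. Among members with at least 50 UMIs the median large subunit member stood below the median small subunit member. In VSMC-like cells these medians were log2 ratios of -0.62 and -0.28. They were -0.50 and -0.34 in fibroblast-like, -0.38 and -0.09 in endothelial-like and -0.51 and -0.26 in macrophage-like cells.

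The summed share hides that its members parted into opposite directions. With a member called higher or lower where its CPM differed by more than 1.5-fold and it had at least 50 UMIs over both libraries, 26 of 79 members were higher and 37 were lower in case VSMC-like cells. Over all genes with as many UMIs in these cells 6.22% were higher and 16.3% lower. In fibroblast-like cells 24 of 80 members were higher and 33 lower, against 7.3% and 14.8% of all genes. In endothelial-like cells 23 of 71 were higher and 27 lower, against 18.3% and 23.6%, and in macrophage-like cells 19 of 70 were higher and 28 lower, against 15.3% and 14% of all genes. The share of members called was above that of all genes in both directions and in each class. These comparisons share the same 2 libraries, so they are no repeats of each other.

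The median member was lower in the case library although the sum was higher. It stood at a log2 ratio of -0.36 in VSMC-like cells, -0.44 in fibroblast-like cells, -0.31 in endothelial-like cells and -0.40 in macrophage-like cells, where the medians of all genes were -0.15, -0.08, -0.08 and -0.01. On the TMM scale, described at the end, the medians of members were -0.24, -0.38, -0.04 and -0.36. Between the sides lay few members. Only 3 of the 79 in VSMC-like cells had a log2 ratio between 0 and 0.58 (the limit of 1.5-fold), 13 lay between 0 and the lower limit, and 8 lay within 0.1 of a limit. The 26 higher members had a median control level of 1810 CPM and the 37 lower members one of 1014 CPM, and of the 20 members with the highest control level 12 were higher and 7 lower. Higher members were thus the more abundant ones on the whole, with 14 from the large and 12 from the small subunit, against 23 and 14 of the lower ones.

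**Figure D3:**
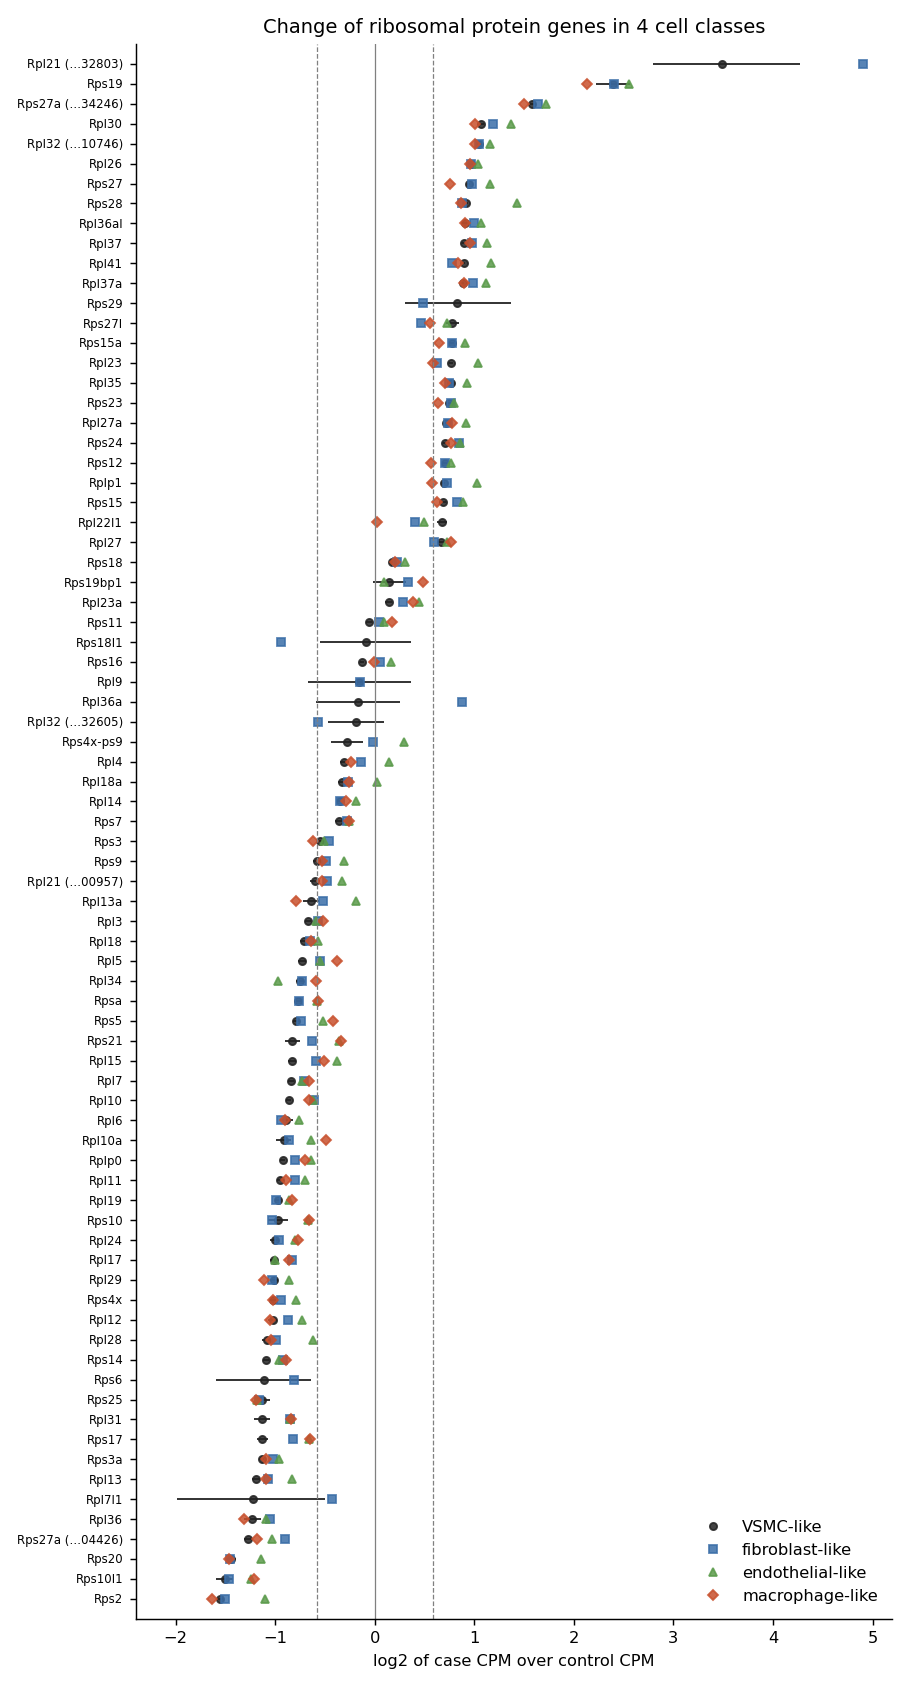
Log2 of case CPM over control CPM for 78 of the 79 members with at least 50 UMIs in VSMC-like cells, ordered by VSMC-like cells (black, with 95% counting intervals), with the other 3 classes in colour. Dashed lines mark 1.5-fold. The upper 25 members lie to the right of the line and the lower 37 to its left in VSMC-like cells, and the coloured points of most members lie close to the black ones.

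The most abundant member in VSMC-like cells was Rpl37a, a zinc-binding protein of the large subunit. It had 6123 CPM in control and 11322 CPM in case VSMC-like cells, a log2 ratio of 0.89 (0.87 to 0.90). Its log2 ratio was 0.99 in fibroblast-like cells, 1.11 in endothelial-like cells and 0.89 in macrophage-like cells. Rplp1, an acidic protein of the stalk that recruits elongation factors, had 5438 CPM in control and 8789 CPM in case VSMC-like cells (log2 ratio 0.69). Rpl41, the smallest ribosomal protein, had 4590 and 8530 CPM (0.89). All 3 belong to the large subunit and were past 1.5-fold in VSMC-like cells.

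Rps27 and Rps28 led the small subunit among the higher members of high level. Rps27, a zinc finger protein, had 4559 CPM in control and 8771 CPM in case VSMC-like cells, a log2 ratio of 0.94 (0.93 to 0.96). Rps28, which lies near the exit of the mRNA from the ribosome, had 2503 and 4727 CPM in VSMC-like cells (0.92) and 3221 and 8662 CPM in endothelial-like cells (1.43). Rpl37, Rps23 and Rpl27a, also among the 10 highest in control VSMC-like cells, had log2 ratios of 0.89, 0.74 and 0.71. Rps16 and Rplp0, which belong to those 10 as well, did not go the same way. Rps16 had 2892 and 2640 CPM, a log2 ratio of -0.13, and Rplp0, the base of the stalk that carries Rplp1, had 2732 and 1440 CPM, a log2 ratio of -0.92 (-0.95 to -0.90). Thus Rplp1 and Rplp0, which sit together in the same stalk, lay on opposite sides.

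Apart from symbols on several rows, Rps19 and Rpl30 had the largest positive log2 ratios in VSMC-like cells, with Rpl26 next. Rps19, which is mutated in Diamond-Blackfan anaemia, had only 27.8 CPM in control and 146 CPM in case VSMC-like cells, a log2 ratio of 2.39 (2.22 to 2.56). It was 2.41 in fibroblast-like cells, 2.55 in endothelial-like cells and 2.13 in macrophage-like cells, on 15 control UMIs in each of the latter. Rpl30 had 1643 and 3451 CPM in VSMC-like cells (1.07) and log2 ratios of 1.18, 1.37 and 1.01 in the other 3 classes. Rpl26 had 1524 and 2973 CPM in VSMC-like cells (0.96) and 1234 and 2394 CPM in macrophage-like cells (0.96). RefSeq names LOC100362339 as a copy of Rps19 (Rps19l4), with 32.9 and 40.9 CPM in VSMC-like cells, and with this row added Rps19 had a log2 ratio of 1.62 in VSMC-like and 1.87 in fibroblast-like cells. The level of Rps19 in both libraries was far below that of most members of its subunit.

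The most negative log2 ratios belonged to small subunit members. Rps2, which helps form the mRNA entry channel, had 2177 CPM in control and 741 CPM in case VSMC-like cells, a log2 ratio of -1.56 (-1.59 to -1.52), and in the other classes it was -1.50 (fibroblast-like), -1.10 (endothelial-like) and -1.63 (macrophage-like). Rps20, which lies at the head of the small subunit, had 997 and 366 CPM in VSMC-like cells (-1.45). Rps25, which viral internal ribosome entry sites need, had 314 and 144 CPM there (-1.13), and its log2 ratios of -1.16, -1.18 and -1.19 in the other classes were among the lowest 5 of each. The large subunit protein Rpl36 had 271 and 116 CPM (-1.23) and Rpl13 had 1261 and 553 CPM (-1.19) in VSMC-like cells. Rpl5 and Rpl11, which with 5S RNA form the particle that binds Mdm2 and so restrains p53 breakdown, were both lower, with log2 ratios of -0.73 and -0.95. Rpl10, which joins late and sits near the peptidyl transferase centre, had 2359 and 1296 CPM (-0.86), and Rpsa, also known as the laminin receptor precursor, had 1921 and 1123 CPM (-0.77).

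The make-up of ribosomal protein RNA differed between the libraries to a like extent in each class and kind of barcode counted here. The 26 members higher in VSMC-like cells, chosen on those values, held 49.7% of ribosomal protein UMIs in control and 74.6% in case VSMC-like cells. They held 51.8% and 75.3% in fibroblast-like cells, 50.3% and 75.1% in endothelial-like cells and 50.6% and 73.2% in macrophage-like cells. In kept cells of no class the values were 50.1% and 74.4%, and in barcodes that had failed the filter they were 50.2% and 73.1%. The 37 lower members held 37.8% of the control and 16.2% of the case UMIs of ribosomal protein genes in VSMC-like cells, and 37.7% and 18.0% in barcodes that had failed the filter. Cells of different types within 1 library were alike to within a few percentage points, and the libraries were apart.

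The same was seen cell by cell, as a description. The 26 members had been chosen on the summed UMIs of VSMC-like cells. Those cells were 959 of the 2125 control and 2223 of the 4660 case cells counted next. For them the direction of the gap was therefore set by the choice. Among kept cells with at least 100 ribosomal protein UMIs, 2122 of 2125 control cells had less than 62.5% of these UMIs in the 26 higher members, and 4626 of 4660 case cells had 62.5% or more, a limit placed midway after the values were seen. The median VSMC-like cell had 49.6% in the control (5th to 95th percentile 45.3 to 53.0) and 74.6% in the case library (70.2 to 78.4). Of the 34 case cells under the limit 15 were fibroblast-like and 8 macrophage-like. The 51 barcodes of the case library that failed the filter but held as many ribosomal protein UMIs were all above the limit, and the 39 of the control library were all below it. Cells are not replicates of a condition, and these counts describe 2 libraries.

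**Figure D4:**
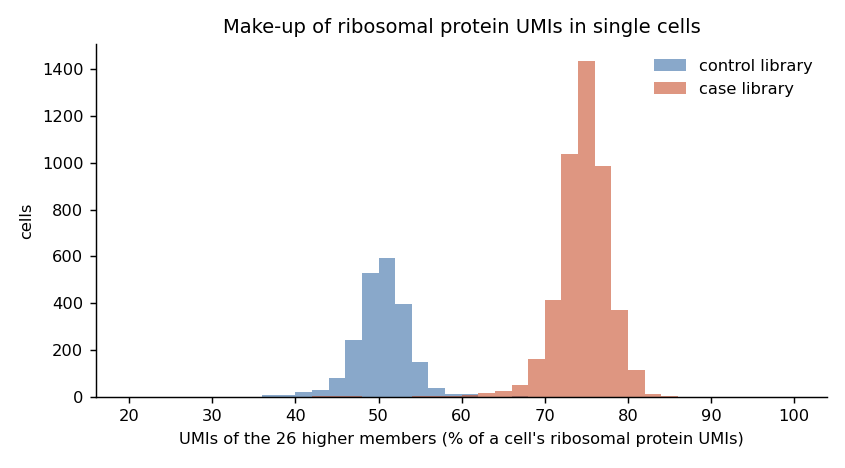
Number of kept cells (vertical axis) by the percent of a cell's ribosomal protein UMIs that fell on the 26 members higher in VSMC-like cells (horizontal axis, bins of 2 percentage points), for cells with at least 100 such UMIs. Control cells lie around 50% and case cells around 75%, with 3 of 2125 control cells and 4626 of 4660 case cells at or above 62.5%. The 26 members were chosen on the summed UMIs of VSMC-like cells, which are among the cells shown, and the limit after the values were seen.

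Members parted in both directions within a range of UMIs per cell and outside the classes too. In VSMC-like cells of 4000 to 8000 UMIs, with medians of 6429.5 in the control and 5649.5 in the case library, 27 of 77 members were higher and 29 lower, against 17.4% and 18.5% of all genes. In fibroblast-like cells of that range 25 of 74 were higher and 23 lower, against 15.3% and 23.4%. In kept cells of no class 25 of 73 were higher and 24 lower, against 10.4% and 16.6%. In barcodes that failed the filter ribosomal protein genes took 4.73% of control and 7.57% of case UMIs, and 26 of 71 were higher and 10 lower, against 26.1% and 7.96% of all genes. As a share of ribosomal protein UMIs, a scale that leaves out that shift, Rps2 in these barcodes had a log2 ratio of -1.41, Rps20 -1.42, Rps14 -1.30, Rpl30 0.85 and Rps27 0.62, where VSMC-like cells had -1.80, -1.69, -1.34, 0.82 and 0.70. On this scale Rps2, Rps20 and Rps14 were thus lower, and Rpl30 and Rps27 higher, also in barcodes that failed the filter. Not every member was as close. Rpl13a had -0.11 in these barcodes and -0.89 in VSMC-like cells, and Rps19bp1 had 0.26 and -0.10.

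Some symbols are listed on several rows, and here rows under the same symbol took opposite sides. Such rows carry different gene identifiers and were not compared by sequence. Rps27a encodes ubiquitin fused to a small subunit protein. Its row ENSRNOG00000034246 had 664 CPM in control and 1988 CPM in case VSMC-like cells, a log2 ratio of 1.58 (1.55 to 1.62). Its row ENSRNOG00000004426 had 1457 and 603 CPM, a log2 ratio of -1.27 (-1.31 to -1.23). Summed, Rps27a had 2121 and 2591 CPM, a log2 ratio of 0.29, and in the other classes the sum had log2 ratios of 0.44 (fibroblast-like), 0.46 (endothelial-like) and 0.19 (macrophage-like). Each row alone passed 1.5-fold and their sum did not.

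The other symbols on several rows each had 1 leading row or none. Rpl21, a large subunit protein, was on 4 rows, of which ENSRNOG00000000957 held 754 and 497 CPM (-0.60), ENSRNOG00000032803 had 18 UMIs in the control and 218 in the case library (3.49, interval 2.79 to 4.27), ENSRNOG00000049848 had 9 and 12 UMIs and ENSRNOG00000029410 had none. Summed, Rpl21 had 756 and 514 CPM (-0.56). Rpl32 was on 2 rows, ENSRNOG00000010746 with 1637 and 3390 CPM (1.05) and ENSRNOG00000032605 with 17.6 and 15.4 CPM (-0.19), which summed to 1655 and 3405 CPM (1.04). Both rows of Rpl7a were at 0 UMIs in all kept cells. So were Rps15al4, Rpl35al1, Rpl39, Rpl8, Rpl38 and 1 row of Rpl21, and 0 UMIs allow up to 3, or 0.242 CPM in control and 0.225 CPM in case VSMC-like cells.

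Rows outside the rule carried the name of a member's copy in RefSeq, and they were looked up after the members' values were seen. Of all rows with another symbol 62 matched such a copy by gene number or synonym, and 22 of them had at least 50 UMIs in VSMC-like cells. Of these 22, 6 were higher and 6 lower by more than 1.5-fold, against 6.22% and 16.3% of all genes. LOC100362149, named Rps20-ps10 in RefSeq, had 478 CPM in control and 1393 CPM in case VSMC-like cells (1.54), while Rps20 itself was lower. Rps20 and LOC100362149 summed to 1475 and 1759 CPM, a log2 ratio of 0.25, and this sum had log2 ratios of 0.24 (fibroblast-like), 0.55 (endothelial-like) and 0.16 (macrophage-like) in the other classes. In VSMC-like cells the sum again lay within 1.5-fold where each row did not. Not every sum did so. With LOC108350502, LOC100362027 and RGD1359290 added, Rps2, Rpl30 and Rpl17 had log2 ratios of -1.55, 0.999 and -0.99 there. These lay close to those of the members alone (-1.56, 1.07 and -1.01) and past 1.5-fold.

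Several members had nearly empty rows beside a well-filled copy. Rpl9 had 5.41 CPM in control VSMC-like cells, and LOC100364457 (Rpl9-ps30) had 2916 CPM in the control and 1543 CPM in the case library (-0.92). Rplp2, the partner of Rplp1 in the stalk, had 5 UMIs in control and 11 in case VSMC-like cells, and LOC498555 (Rplp2l2) had 181 and 237 CPM (0.39). Rps29 had 47 and 90 UMIs in VSMC-like cells, and LOC108351482 (Rps29-ps17) had 501 and 343 CPM (-0.55). For Rpl38 and Rpl39, at 0, LOC685963 (Rpl38-ps9) had 414 and 605 CPM (0.55) and LOC103692785 (Rpl39-ps12) had 451 and 692 CPM (0.62). Low levels of single members are therefore low levels of a row of the table. With these 62 rows added to the members the share in VSMC-like cells was 12.0% and 14.2%, a log2 ratio of 0.23.

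**Figure D5:**
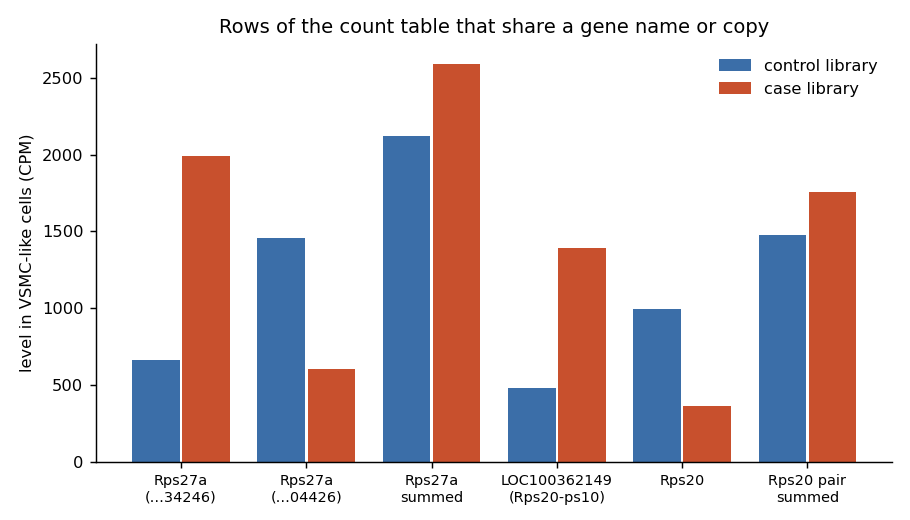
Level in VSMC-like cells (CPM, vertical axis from 0) of the 2 rows of Rps27a and their sum, and of Rps20, its RefSeq copy LOC100362149 and their sum, in the control and case libraries. In each pair 1 row is higher and 1 lower in the case library, and the sums differ by log2 ratios of 0.29 and 0.25. Sums of some other members with their copies, not shown, stayed past 1.5-fold.

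The number of copies that RefSeq names after a member was similar on both sides. It is a count of names, in another build than that of the count table, and no sequences were compared. It therefore cannot show how reads were shared. The 26 higher members in VSMC-like cells had a median of 13 copies (0 to 29), the 37 lower members 15 (0 to 36) and the 16 others 12 (0 to 27). How the counting shared reads between such copies, and whether it did so alike in both libraries, was not tested, so the levels of single rows with near-identical copies are uncertain. Whether the processing of the libraries had a part in the split of the 26 and 37 members, which was nearly as wide in barcodes that failed the filter, was not tested either.

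Paralogues and other members named after another member were mostly minor partners, Rpl36al and Rps10l1 being the exceptions. Rpl36al had 1318 CPM in control and 2463 CPM in case VSMC-like cells (0.90), where Rpl36a had 7.92 and 7.04 CPM, so that Rpl36al held 99.4% and 99.7% of the pair. As the row of Rpl36a was nearly empty, like that of Rpl9, this is a share of rows of the count table. Whether reads of Rpl36a were counted elsewhere was not tested. Rps27l, a relative of Rps27 known as a p53 target, had 264 and 453 CPM (0.78) and held 5.47% and 4.91% of its pair. Rps10l1 had 326 and 115 CPM (-1.50) and Rps10 179 and 91.0 CPM (-0.98), so the share of Rps10l1 went from 64.5% to 55.8%. Rpl22l1 had 448 and 716 CPM in VSMC-like cells (0.68) and 406 and 413 CPM in macrophage-like cells (0.02). Rps4x-ps9 held 2.95% and 4.84% of its pair with Rps4x, whose own level went from 1736 to 855 CPM.

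Other paralogues were near the floor in VSMC-like cells. Rpl3l, the relative of Rpl3 that is known from striated muscle, had 1 UMI in each library beside 18719 and 12703 UMIs of Rpl3, and Rpl10l, known from testis, had 2 and 1. Rpl30l1 had 5 and 5 UMIs, Rplp0l1 had 7 and 7, Rps19l2 had 5 and 16, and Rps4y2 had 4 and 2. Rpl39l was at 0 there and had 2 UMIs in case fibroblast-like cells. Rpl7l1 had 52 and 24 UMIs and Rps18l1 had 82 and 83. Of the main genes Rps6, the target of the S6 kinases, also had few, with 114 and 57 UMIs, and Rpl35a had 0 and 3. Among these paralogues of under 50 UMIs the interval of the log2 ratio included 0 wherever both libraries had a UMI, except that of Rps19l2 (0.054 to 3.37).

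Between classes the share of ribosomal protein genes was lowest in macrophage-like cells among the 4 larger classes. Set against VSMC-like cells, the log2 ratio was -0.22 (-0.23 to -0.20) in the control and -0.24 (-0.25 to -0.23) in the case library. In cells of 4000 to 8000 UMIs it was -0.04 in the control library, with 14 macrophage-like and 92 VSMC-like cells, and -0.26 in the case library, so the control difference was smaller within that range. Of the members 12 of 77 in the control and 11 of 78 in the case library were lower in macrophage-like cells by more than 1.5-fold, against 48.5% and 40.9% of all genes. Endothelial-like cells stood 0.06 above VSMC-like cells in the control and 0.28 above them in the case library on the log2 scale.

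Few members were marked by cell class. Rps4y2 varied most, with 20.6 CPM in endothelial-like, 7.11 CPM in fibroblast-like and 0.323 CPM in VSMC-like control cells, and 18.7, 5.35 and 0.150 CPM in the case library, although the endothelial-like values rest on 10 and 24 UMIs. Rps28 was lowest in VSMC-like cells in both libraries, with 2503 CPM in the control against 4553 CPM in fibroblast-like and 4296 CPM in macrophage-like cells. Rps9 was highest in macrophage-like cells, with 1647 CPM in the control and 1141 CPM in the case library, against 865 and 578 CPM in VSMC-like cells. Rps27l was highest in macrophage-like cells too, with 416 and 610 CPM, against 213 and 293 CPM in fibroblast-like cells. Rpl36al was lowest in macrophage-like cells, with 699 and 1306 CPM. Rpl22l1 was highest in fibroblast-like cells, with 870 and 1147 CPM, and lowest in macrophage-like cells. The orders of these 6 members were alike in both libraries at the ends named here.

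Rps29, Rpl36a, Rps19bp1 and Rps20 completed the 10 members that varied most between classes. Members were ranked by the range of their share of ribosomal protein UMIs, in whichever library it was smaller. The levels given for them are in CPM, a scale on which the ranking can differ. Rps29 and Rpl36a were under 12 CPM everywhere. Rps19bp1 was highest in macrophage-like cells, with 50.5 CPM in the control and 70.7 CPM in the case library, and Rps20 was lowest in VSMC-like cells, with 997 and 366 CPM.

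A group of cells had very few ribosomal protein UMIs. Under 4% of their UMIs fell on members in 250 control cells (9.12% of kept cells) and 258 case cells (5.23%), of which 191 and 183 were in no class. These cells had a median mitochondrial share of 12.5% in the control and 14.7% in the case library, where the other cells had 4.45% and 4.66%. Their level of Pycard, an adaptor of the inflammasome chosen after its values were seen, was 1441 and 1671 CPM, against 132 and 288 CPM in the other cells. At the other end, cells with at least 20% had a median of 833 UMIs in the control (197 cells) and 4058 UMIs in the case library (423 cells).

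Proteins of the ribosome that go by other names stood on both sides in VSMC-like cells. Fau, whose product is cut into a ubiquitin-like part and a small subunit protein, had 2214 CPM in control and 3324 CPM in case VSMC-like cells, a log2 ratio of 0.59 (0.56 to 0.61). Rack1, a scaffold on the small subunit, had 853 and 559 CPM on its leading row (-0.61). Fau was thus higher and Rack1 lower by more than 1.5-fold there. In fibroblast-like, endothelial-like and macrophage-like cells Fau had log2 ratios of 0.63, 0.77 and 0.66, whereas those of Rack1 were -0.37, -0.48 and -0.21 and lay within 1.5-fold.

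Elongation factors and other mRNAs known for the pyrimidine tract were not higher as a list. Of 21 tested in VSMC-like cells 0 were higher and 8 lower by more than 1.5-fold (all genes 6.22% and 16.3%), with a median log2 ratio of -0.39, and their sum went from 12390 to 8495 CPM (-0.54). Tpt1, the tumour protein translationally controlled through this tract, had 5700 and 2840 CPM and Eif3h, a subunit of initiation factor 3, had 89.2 and 37.3 CPM (-1.26). Eef1b2, an exchange factor of elongation factor 1, had 744 and 915 CPM (0.30) and Pabpc1, the poly(A) binding protein, had 352 and 450 CPM (0.35). Of the same 21, 3 were lower and 0 higher in fibroblast-like cells (all genes 14.8% and 7.3%), 6 lower and 2 higher in endothelial-like cells (23.6% and 18.3%), and 4 lower and 0 higher in macrophage-like cells (14% and 15.3%). The share of lower calls was thus above that of all genes in VSMC-like cells, near it in fibroblast-like cells and a little above it in endothelial-like and macrophage-like cells. The sum of the list was lower in each class, with log2 ratios of -0.47 (fibroblast-like), -0.37 (endothelial-like) and -0.53 (macrophage-like) beside that of VSMC-like cells.

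Genes for ribosome assembly stood close to 0 in the 2 larger classes. In VSMC-like cells 3 of 22 tested were higher and 2 lower (all genes 6.22% and 16.3%), with a median log2 ratio of 0.04. Gnl3, the nucleolar protein nucleostemin, had 337 and 605 CPM (0.85) and Nop58, a core protein of small nucleolar particles, had 81.6 and 129 CPM (0.66), while Bop1, a large subunit assembly factor, had 8.97 and 5.16 CPM (-0.80) and Npm1, nucleophosmin, had 584 and 384 CPM (-0.61). In fibroblast-like cells 1 of 22 was higher and 0 lower (all genes 7.3% and 14.8%), in endothelial-like cells 7 of 15 were higher and 1 lower (18.3% and 23.6%), and in macrophage-like cells 1 of 11 was higher and 1 lower (15.3% and 14%).

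Genes that govern translation of the tract were called in neither direction in VSMC-like cells, with 0 of 10 higher or lower (all genes 6.22% and 16.3%). Myc had 61.1 and 76.6 CPM (0.33), Eif4e 116 and 142 CPM (0.30), Larp1 14.9 and 11.9 CPM (-0.32) and Rptor, a part of mTOR complex 1, 8.97 and 7.63 CPM (-0.23). Proteins of the mitochondrial ribosome are encoded by other genes and had more lower than higher calls in each class but the macrophage-like one. Of 74 tested in VSMC-like cells 2 were higher and 30 lower (all genes 6.22% and 16.3%), with a median log2 ratio of -0.46, led by Mrpl28 (16.2 and 6.29 CPM, -1.36) and Mrpl58 (27.7 and 11.6 CPM, -1.26), with Mrpl1 (1.01) and Mrps18c (0.63) highest. In fibroblast-like cells 6 of 74 were higher and 25 lower (all genes 7.3% and 14.8%), in endothelial-like cells 3 of 20 and 8 (18.3% and 23.6%), and in macrophage-like cells 3 of 9 and 0 (15.3% and 14%). Genes for the control of translation gave 1 higher and 1 lower of 9 in fibroblast-like cells (all genes 7.3% and 14.8%). They gave 1 and 1 of 4 in endothelial-like cells (18.3% and 23.6%) and 0 of 2 either way in macrophage-like cells (15.3% and 14%).

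Genes raised by tissue digestion, such as Fos and Egr1, were called in neither direction in VSMC-like cells (0 of 9, all genes 6.22% higher and 16.3% lower). Junb had a log2 ratio of -0.46, Atf3 -0.43, Hspa1b 0.28 and Dnajb1 0.32. In endothelial-like cells 3 of 9 were lower and 0 higher (all genes 23.6% and 18.3%), and in macrophage-like cells 4 and 0 (14% and 15.3%). In fibroblast-like cells 1 of 9 was lower and 0 higher (14.8% and 7.3%). The sum of the list had log2 ratios of -0.60, -0.59 and 0.12 in these classes, in the same order, against -0.03 in VSMC-like cells. Among the 13 mitochondrially encoded genes 3 were higher and 0 lower in VSMC-like cells (all genes 6.22% and 16.3%). In fibroblast-like cells 2 were higher and 0 lower (7.3% and 14.8%). In endothelial-like cells 3 were higher and 0 lower (18.3% and 23.6%), and in macrophage-like cells 5 and 0 (15.3% and 14%). In VSMC-like cells Mt-atp8 (208 and 589 CPM) and Mt-nd3 (1012 and 2392 CPM) were highest and Mt-cyb (-0.25) and Mt-co2 (-0.21) lowest. Whether handling or RNA quality had a part in the members' changes was not tested.

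The scale mattered most in endothelial-like cells. Scaling by the trimmed mean of M-values (TMM), which assumes that most genes do not differ, raised the median log2 ratio of all genes by 0.27 there, by 0.13 in VSMC-like cells and by 0.06 or less elsewhere. Of the 71 members of endothelial-like cells 25 were then higher and 12 lower, against 29.3% and 13.1% of all genes, so members and all genes alike turned to more higher than lower calls. VSMC-like cells had 26 members higher and 34 lower on that scale, against 9.29% and 10.7% of all genes. In fibroblast-like cells the counts were 24 and 30 (all genes 9.12% and 12.4%) and in macrophage-like cells 22 and 26 (16.9% and 12%).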

How the data were processed

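The authors deposited 1 matrix of UMI counts per gene and barcode for both libraries, made with Cell Ranger 3.1.0, and the labels name the build Rnor_6.0. The deposited counts hold 5656 case and 3321 control barcodes, and a barcode's trailing number was matched to a library through the barcode numbers that the study's methods state. Whether read depth was equalised between the libraries, and how reads that match several genes were treated beyond the program's defaults, is not given in the sources used here.

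Cells were kept with at most 20% mitochondrial UMIs, log10 UMIs and genes within 2 SD of their library's mean, and a number of genes no more than 3 robust SD off the line fitted to UMIs. This left 2742 control cells (23974210 UMIs) and 4930 case cells (27054902 UMIs). Scrublet marked 6 control cells and 0 case cells as doublets, which is too few to trust, so doublets were left in. Classes were gated on marker UMIs, whose limits were set with the marker UMIs in view. Of the cells in no class, 534 of 823 (control) and 545 of 762 (case) lay within 50% of a limit. Classes go by their marker lists and may differ from the study's clusters.

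UMIs were summed per library and class and given as CPM. A UMI stands for 1 molecule and was not divided by gene length. Members with at least 50 UMIs over both libraries and a difference past 1.5-fold were called, with exact 95% binomial or Poisson intervals for counting error. UMI totals per library limit the precision. Gene names, copies and start sites came from RefSeq tables of build GRCr8, and no coordinate of the count files was used. Named were the 10 highest and 5 lowest detected members in control VSMC-like cells, the 5 largest log2 ratios each way per class, the 10 members varying most between classes, repeated symbols, paralogues, and from each other list the 2 largest ratios each way. Rpl5, Rpl11, Rpl10, Rpl19, Rpsa, Rps14, Rps10 and Rps4x were added for their roles or pairs. A few genes that this rule names are not reported here. The members and lists were chosen with earlier results of these data known. Fold calls were tested on simulated data. TMM factors came from edgeR 4.0.16 in R 4.3.3, clusters from scanpy 1.11.5, intervals from scipy 1.17.1 and sums from pandas 2.3.3, under Python 3.11.15. Alternatives in filter, gate, clusters, scaling, thinning and minimum UMIs were run.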

Additional observations from a re-analysis of the deposited data

Results flagged for a closer look

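Ribosomal protein signal also lay outside the kept cells and outside the rows of the rule. Of the copies, only those higher in the case library are listed here, so their direction was set by the choice. In the barcodes that failed the filter ribosomal protein genes held 7.57% of case and 4.73% of control UMIs. Of the ribosomal protein UMIs in those barcodes 73.1% in the case and 50.2% in the control library fell on the 26 members higher in VSMC-like cells.

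Of the 22 rows with at least 50 UMIs that RefSeq names as copies, 6 were higher and 6 lower by more than 1.5-fold in case VSMC-like cells, against 6.22% and 16.3% of all genes. The 6 higher ones follow. LOC100360057 (Rpl22-ps2) had 2219 CPM in the case and 1223 CPM in the control library, and Rpl22 itself has no row under that symbol. LOC100362149 (Rps20-ps10) had 1393 and 478 CPM in the same order, and LOC103692785 (Rpl39-ps12) had 692 and 451 CPM. LOC300249 (Rpl4-ps1) had 11.4 and 5.17 CPM, while Rpl4 had 499.8 CPM in the case and 617 CPM in the control library. RGD1359290 (Rpl17-ps16) had 14.4 and 8.97 CPM against 692 and 1396 CPM of Rpl17. AABR07066818.1 (Rps2-ps6) had 2.92 and 1.70 CPM on 39 and 21 UMIs, and the interval of its log2 ratio included 0 (-0.018 to 1.62). The last 3 rows thus lay far below their parents. Their parents had negative log2 ratios, that of Rpl4 (-0.30) within 1.5-fold. Whether reads of the parents were counted on these rows was not tested.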

How the results depend on the processing

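Each alternative setting gave 1 value per class. The ribosomal protein share was higher in the case library in all 44 values so obtained, with log2 ratios from 0.19 to 0.73. The ratio of large to small subunit was higher in all 24 of its values, by 0.04 to 0.10. In the order VSMC-like, fibroblast-like, endothelial-like and macrophage-like, the log2 ratio of the share was 0.38, 0.36, 0.73 and 0.27 with TMM, 0.27, 0.31, 0.49 and 0.25 with cells thinned to 2000 UMIs, 0.24, 0.28, 0.44 and 0.27 with a stricter gate, and 0.22, 0.27, 0.49 and 0.29 as the mean of per-cell shares. For VSMC-like and fibroblast-like cells it was 0.25 and 0.31 with at least 2000 UMIs per cell and 0.26 and 0.31 with classes from clusters, and without mitochondrial genes it was 0.26 in VSMC-like cells. In 2 alternatives chosen after seeing the data, taking out the highest Scrublet scores gave 0.25, 0.29 and 0.19 in VSMC-like, fibroblast-like and macrophage-like cells, and leaving out cells under 6% of ribosomal protein UMIs gave 0.24, 0.28 and 0.28.

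Counts of members past 1.5-fold stayed within 1.5 times except that 12 in place of 27 members were lower in endothelial-like cells with TMM, whose construction shifts every gene of a class alike. The macrophage-like to VSMC-like log2 ratio was -0.043 in the control and -0.26 in the case library in cells of 4000 to 8000 UMIs, and -0.25 and -0.27 without mitochondrial genes. TMM turned the summed ribosome assembly genes of fibroblast-like cells from -0.0093 to 0.052 and the summed tissue handling genes of VSMC-like cells from -0.03 to 0.10. Removing Scrublet calls took out at most 6 cells and says nothing about doublets. Thinning left out 49 control and 29 case VSMC-like cells. No paired analysis was possible because each group is 1 library that pools its animals, with no replicate numbers in the labels, although both libraries came from the same rats. Depth limits the paralogues of a few UMIs and the classes of 60 or fewer control cells.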
